A study of Drosophila melanogaster with 3 samples.

Results

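Small nuclear RNA (snRNA) genes encode the short, stable RNAs at the heart of the machinery that removes introns and trims certain transcripts. The 32 genes with the biotype snRNA were taken from the Ensembl annotation of the dm6 genome of Drosophila melanogaster, out of 18164 annotated genes on the 6 main chromosome arms, transposable elements not counted. For each gene the strongest Ets65A-eGFP peak summit within 500 bp of the gene start was looked up, first in the list of reproducible peaks and otherwise in the list from the pooled replicates. The genes were chosen by annotation, but as a set they were selected on the reproducible peaks and signal values already seen in these data, so those values are given as a description. The genes they were set against were 290 tRNA genes, 269 small nucleolar RNA (snoRNA) genes and 13945 protein-coding genes. By class, the snRNA genes comprised 5 U1, 6 U2, 3 U4, 7 U5 and 3 U6 genes, 1 each of U11, U12, U4atac, U6atac, U7 and LU, and 2 of 7SK. Gene names are given below without their common prefix snRNA.

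U1 and U2 recognise the start of the intron and its branch point, and U4, U5 and U6 then join as a tri-snRNP from which the catalytic core is formed. U11, U12, U4atac and U6atac do the same work for a rare class of introns, U7 directs the processing of histone mRNA ends, and 7SK RNA holds the elongation factor P-TEFb inactive. In flies these genes are driven by a proximal sequence element (PSEA), which the complex SNAPc binds upstream of the start. Most are transcribed by RNA polymerase II, while U6, U6atac and 7SK are transcribed by RNA polymerase III, with a TATA box next to the PSEA and, unlike in tRNA genes, no control element needed inside the gene.

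The data came from chromatin immunoprecipitation and sequencing of whole fly embryos of both sexes, 0 to 24 h old, from 1 stable transgenic line in which GFP is fused to the C-terminus of Ets65A, a transcription factor of the ETS family. The precipitation used an antibody against GFP according to the description, although the antibody field names Ets65A, and chromatin was sheared by sonication. There were 3 biological replicates, all of 1 genotype and 1 line, and no second condition, so no comparison between treatments or genotypes was possible. Whole embryos mix all tissues and stages, so a peak can come from any of them.

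The authors kept a list of 2780 peaks under a cutoff on the irreproducible discovery rate (IDR), called reproducible here. Its lowest signal, 71.8, was also the signal at rank 2780 of the pooled list. A place in the IDR list thus does not show that a peak ranked high in every replicate. Of these IDR peaks, 5 belonged to 6 snRNA genes, and the DNA just before the start of these genes is shown here with that of close copies that had no such peak. Each line gives the 75 bases before the gene start on the strand of the gene, from the RefSeq sequence of the dm6 assembly, 5′ to 3′, with the letters closest to the PSEA core AATTCCC in capitals.
U1:95Ca: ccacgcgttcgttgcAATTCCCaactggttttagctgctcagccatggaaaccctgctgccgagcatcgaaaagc
U1:21D: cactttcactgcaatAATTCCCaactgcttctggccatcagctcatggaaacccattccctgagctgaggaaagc
U2:34ABb: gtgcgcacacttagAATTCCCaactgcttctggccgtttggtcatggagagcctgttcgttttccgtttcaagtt
U2:34ABc: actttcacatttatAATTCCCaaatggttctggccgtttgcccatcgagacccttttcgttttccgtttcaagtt
U4:39B: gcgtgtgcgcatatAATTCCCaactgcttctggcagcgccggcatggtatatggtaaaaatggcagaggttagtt
U4:38AB: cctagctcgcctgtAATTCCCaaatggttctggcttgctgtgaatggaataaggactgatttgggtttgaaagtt
U6:96Ac: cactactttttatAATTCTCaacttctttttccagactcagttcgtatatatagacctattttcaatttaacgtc
U6:96Ab: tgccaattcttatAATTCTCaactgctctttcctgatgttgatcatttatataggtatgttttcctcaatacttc
U6:96Aa: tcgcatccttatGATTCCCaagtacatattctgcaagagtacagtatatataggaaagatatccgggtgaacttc
7SKa: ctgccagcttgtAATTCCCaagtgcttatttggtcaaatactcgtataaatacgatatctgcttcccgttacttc
7SKb: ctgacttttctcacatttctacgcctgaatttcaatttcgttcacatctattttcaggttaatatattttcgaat

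These windows lie at chr3R:23859631-23859705 (U1:95Ca, minus strand), chr2L:901655-901729 (U1:21D, minus), chr2L:13215764-13215838 (U2:34ABb, plus), chr2L:13244562-13244636 (U2:34ABc, minus), chr2L:21215179-21215253 (U4:39B, minus) and chr2L:19810659-19810733 (U4:38AB, plus). The U6 windows lie at chr3R:24557140-24557214 (U6:96Ac), chr3R:24556617-24556691 (U6:96Ab) and chr3R:24556013-24556087 (U6:96Aa), all on the plus strand. The 7SK windows lie at chr3R:7474997-7475071 (7SKa, minus) and chr3R:23432794-23432868 (7SKb, plus). The core of U1:95Ca, with an IDR peak, and that of U1:21D, without one, were both exact and at position -60 from the start, and those of U2:34ABb and U2:34ABc were both exact and at -61. U6:96Ab and U6:96Ac carried AATTCTC at -62, and U6:96Aa, without an IDR peak, carried GATTCCC at -63. 7SKa had the exact core at -63. In 7SKb no run of letters within 1 mismatch of the core was found, and no part of its window is in capitals.

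The PSEA core marked the snRNA genes as a group. The letters AATTCCC, searched on both strands of the 100 bp before the start, were present at 22 of 32 snRNA genes (68.8%), against 9 of 290 tRNA genes (3.10%), 5 of 269 snoRNA genes (1.86%) and 176 of 13945 protein-coding genes (1.26%). With 1 mismatch allowed on the strand of the gene, a search added after the first counts were seen, the core was found at 31 of 32 snRNA genes (96.9%), 29 tRNA genes (10%), 39 snoRNA genes (14.5%) and 1818 protein-coding genes (13%). The 1-mismatch forms were AATTCTC at 5 genes and GATTCCC at 4. Where found, the first base of the core lay between positions -66 and -57 relative to the start, at a median position of -60. A TATA word downstream of it, TATAAA or TATATA on the strand of the gene, accompanied the core at the 3 U6 genes, U6atac and 7SKa, which are 5 of the 6 genes in the classes that RNA polymerase III transcribes. The core did not separate the genes with an IDR summit from the rest, being exact at 4 of 6 genes with one and 18 of 26 without.

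Ets65A-eGFP was found at a subset of snRNA genes. An IDR summit lay within 500 bp of the start at 6 of 32 snRNA genes (18.8%, 95% Wilson interval 8.89 to 35.3), against 10 of 290 tRNA genes (3.45%, 1.88 to 6.23), 10 of 269 snoRNA genes (3.72%, 2.03 to 6.71) and 1990 of 13945 protein-coding genes (14.3%). Over all genes the share was 11.8% (2143 of 18164). Where the peak itself had to cover the gene start, 3 snRNA genes (9.38%; U1:95Ca, U2:34ABb and U4:39B) remained, against 1.38% of tRNA genes, 0.743% of snoRNA genes, 9.47% of protein-coding genes and 7.59% of all genes. The intervals cover counting error over genes only, and no test was made, since the set had been selected with its peaks already seen. Of the snRNA genes, 11 start within 1000 bp of another snRNA gene, so neighbours can share a peak and are not independent. Widening the distance to 1000 bp gave shares of 18.8% for snRNA, 6.21% for tRNA and 14.9% for snoRNA genes, against 14.4% of all genes. The gap to snoRNA genes thus depended on the distance. Within 500 bp the snRNA share was above that of the other small RNA genes. Its interval there spans the shares of protein-coding genes and of all genes. Including the weaker calls of the pooled list, 18 snRNA genes (56.2%, 39.3 to 71.8) had a summit, against 41.4% of tRNA genes, 29.4% of snoRNA genes, 50.8% of protein-coding genes and 45.7% of all genes. The pooled list includes peaks with little evidence of enrichment, its lowest -log10 q being 0.0177, and 7 snRNA genes remained where a -log10 q of at least 2 was required. The share over all genes at that limit was not counted, so these 7 cannot be set against the shares above. Of the snRNA genes without an IDR summit, 12 had one in the pooled list, at -log10 q values of 0.0404 to 3.33, and 14 had none in either list. Peak lists carry no read counts, so the sequencing depth behind these values is unknown.

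**Figure D1:**
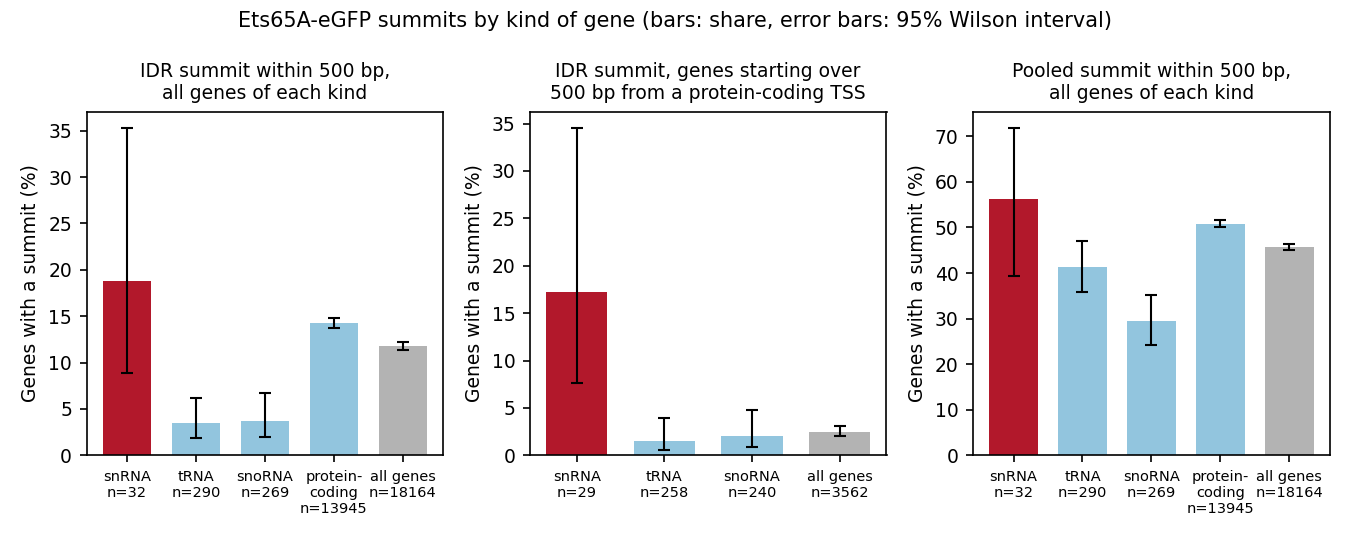
Share of genes with an Ets65A-eGFP summit within 500 bp of the gene start (y axis, percent) for snRNA, tRNA, snoRNA, protein-coding and all genes, from the IDR list (left), the IDR list for genes starting over 500 bp from a protein-coding TSS (middle) and the pooled list (right). Error bars are 95% Wilson intervals; the snRNA bars stand at 18.8%, 17.2% and 56.2%, and among genes away from protein-coding starts the tRNA bar stands at 1.55% and the snoRNA bar at 2.08%.

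A peak close to both an snRNA gene and a protein-coding gene cannot be assigned to either, so the genes that start away from protein-coding ones were also counted alone. The start of 29 of 32 snRNA genes was over 500 bp from every protein-coding transcription start site (TSS). Over all 32 the median distance was 3250.5 bp, against 2895 bp for tRNA genes and 1470 bp for snoRNA genes. Among such isolated genes, 5 of 29 snRNA genes (17.2%, 7.60 to 34.5) had an IDR summit, against 4 of 258 tRNA genes (1.55%, 0.605 to 3.92), 5 of 240 snoRNA genes (2.08%, 0.893 to 4.78) and 2.5% of all 3562 genes so placed (89 genes). All 5 IDR peaks at the 32 snRNA genes, including that of U2:34ABb, which is not isolated, had summits over 500 bp from a protein-coding TSS. The distances ran from 596 bp (U2:34ABb, to kek4) to 30436 bp (U1:95Ca, to Pli). In contrast, 3 of 10 IDR peaks at tRNA genes, 4 of 9 at snoRNA genes and 1138 of all 2780 (40.9%) were so distant. When an IDR call was replaced by a summit among the 2780 strongest of both remaining replicates, the isolated snRNA genes numbered 4 without replicate 1, 2 without replicate 2 and 3 without replicate 3, and the share over all isolated genes was 1.88%, 1.43% and 1.66%. Where the peak had to cover the gene start, 2 of the 29 isolated snRNA genes (6.90%) remained, against 0.870% of all isolated genes.

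Among the U1 genes, U1:95Ca (FBgn0004185, chr3R:23859467-23859630, minus strand, between genes) had the sole IDR peak, with a signal value of 100.6, rank 1642 of 2780, and a summit 14 bp inside the gene. The signal value is the authors' score for each peak, on a scale that is not stated, and the rank counts from the strongest. U1:95Ca reached 19.3, 46.5 and 30.2 in replicates 1, 2 and 3, where its ranks among 30000 peaks were 2949, 1281 and 2361. U1:21D, which is identical to U1:95Ca over all 164 bases of the gene, stood just outside the IDR list with a pooled signal of 65.1 (rank 3234), the lowest IDR signal being 71.8. U1:21D was strong in replicate 1 (22.1, rank 2251) and replicate 2 (35.6, rank 2021) and weak in replicate 3 (8.78, rank 22391). U1:95Cc had a pooled signal of 27.4 and U1:95Cb one of 21.5, near the floor of the pooled list at 18.1, and U1:82Eb had no summit in either list. All 5 U1 genes had a summit in the list of replicate 2, 3 had one in replicate 1 and 4 in replicate 3.

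Among the U2 genes, whose RNA pairs with the branch point, U2:34ABb (FBgn0004192, chr2L:13215839-13216030, plus strand) had the strongest peak at any snRNA gene, with a signal of 135.0 (rank 948) and a summit at +107 bp, within the gene. Its own signal was 23.6, 49.4 and 55.7 in replicates 1, 2 and 3, at ranks 2021, 1127 and 679, so it was among the 2780 strongest peaks each time. The start of U2:34ABb lay 489 bp from the TSS of kek4, which makes it the 1 snRNA gene with an IDR summit that starts within 500 bp of a protein-coding gene. U2:34ABc, identical to it over 192 bases, had a pooled signal of 33.3 from a summit at -450 bp. The same summit lay 163 bp after the start of the divergent neighbour U5:34A. A weaker pooled summit, with a signal of 19.9, lay 168 bp from the start of U2:34ABc. U2:38ABa had 22.9 and U2:34ABa had 19.2 in the pooled list, and U2:14B and U2:38ABb had no summit in either list.

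In the tri-snRNP classes, an IDR summit lay at 1 of 3 U4, 0 of 7 U5 and 2 of 3 U6 genes. Among the U4 genes, U4:39B (FBgn0003930, chr2L:21215036-21215178, minus strand, inside Atg18b and on the same strand) had an IDR peak, at a signal of 85.9 (rank 2110) with its summit at +34 bp, the lowest signal among the snRNA peaks, against 71.8 for the lowest of the whole list. Its signal was 18.8, 12.8 and 39.9 in replicates 1, 2 and 3, at ranks 3126, 10851 and 1356, so replicate 3 alone placed it among the 2780 strongest. U4:38AB, which shares 94.4% of its bases with U4:39B, and the more divergent U4:25F had no summit in either list. The 7 U5 genes are the whole annotated class, so the count of 0 only describes them, beside a share of 11.8% over all genes. U5:63BC came closest with a pooled signal of 46.3 (rank 5288), a summit at +14 bp, and signals of 18.8 in replicate 2 and 30.4 in replicate 3, with no summit within 500 bp in replicate 1. U5:34A had 33.3 and U5:38ABb 22.9 in the pooled list, each from a peak shared with a U2 gene, and U5:14B, U5:23D, U5:35D and U5:38ABa had no summit in either list.

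U6 RNA forms the catalytic centre of the spliceosome, and its 3 genes, identical over 107 bases, lie in a row on chromosome arm 3R. A single IDR peak, at a signal of 127.8 (rank 1062), fell between U6:96Ab (FBgn0004189, chr3R:24556692-24556798) and U6:96Ac (FBgn0004190, chr3R:24557215-24557321). Its summit was 110 bp before the start of U6:96Ac, upstream of the PSEA core, and 413 bp after the start of U6:96Ab. In replicates 1, 2 and 3 this peak had signals of 24.0, 50.2 and 45.8 and ranks of 1959, 1106 and 1022, all among the 2780 strongest. The peak was 118 bp wide, where 2282 of the 2780 IDR peaks (82.1%) were 390 bp wide, and 62 were as narrow as this one or narrower. U6:96Aa had no summit in the IDR or pooled list, although weak calls appeared in replicate 2 (11.4, rank 13520) and replicate 3 (9.01, rank 21465). Both lay past the end of U6:96Aa, at +149 bp in replicate 2 and +440 bp in replicate 3. The summit of replicate 3 was nearer to the start of U6:96Ab.

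Of the genes with other roles, 7SKa (FBgn0065099, chr3R:7474553-7474996, minus strand, between genes) had an IDR peak with a signal of 119.5 (rank 1204) and a summit at +240 bp, in the middle of its 444 bases. The replicates disagreed on this gene: the signal was 9.06 in replicate 1 (rank 23383, -log10 q of 0.122), 42.9 in replicate 2 (rank 1462) and 64.7 in replicate 3 (rank 484). The value in replicate 1 was close to the lowest signal of that list, 8.06, and replicate 3 ranked 7SKa highest of all snRNA genes. 7SKb, annotated as a second 7SK gene inside CG4374 on the opposite strand but sharing 48.9% of its bases with 7SKa, had no summit in any list within 500 bp. The U7 gene, inside Eip63E, had a pooled signal of 23.9 and weak calls in all 3 replicates (9.03, 9.81 and 8.85). None of the 4 minor spliceosome genes had an IDR summit: U4atac had a pooled signal of 25.6 and U12 one of 23.0, while U11 and U6atac had no summit in either list. LU had no summit in any list.

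**Figure D2:**
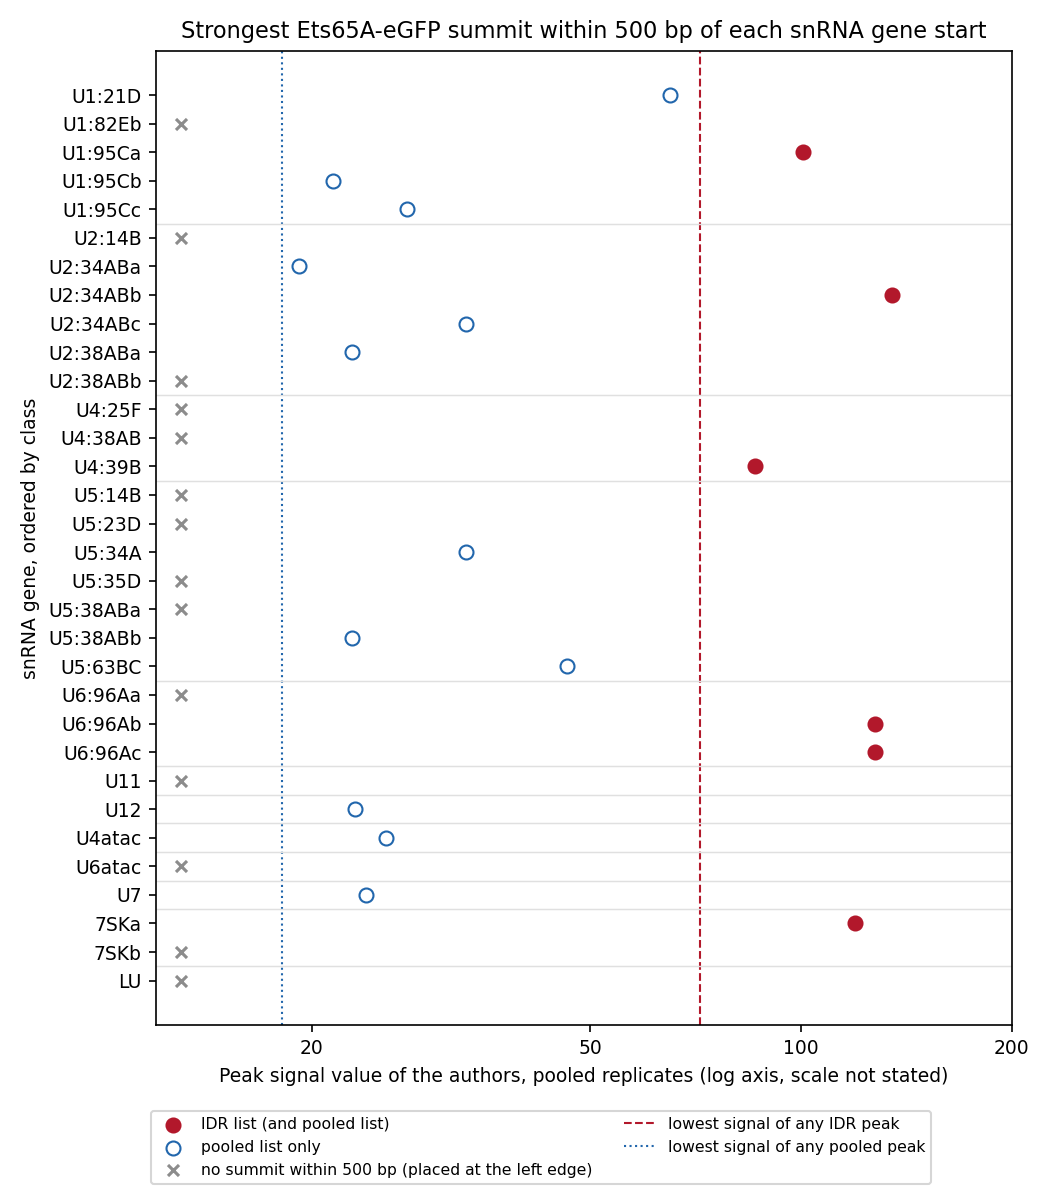
Signal value of the strongest summit within 500 bp of the start of each of the 32 snRNA genes (x axis, log scale, authors' units), with genes ordered by class down the page. Filled points are the 6 genes with an IDR summit, at 85.9 to 135.0; open points are the 12 genes with a summit in the pooled list alone, at 19.2 to 65.1; crosses mark the 14 genes with none; the lines mark the lowest signal of the IDR list (71.8) and of the pooled list (18.1).

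By polymerase, 3 of 6 genes in the RNA polymerase III classes (50%, 18.8 to 81.2) and 3 of 26 in the RNA polymerase II classes (11.5%, 4.00 to 29.0) had an IDR summit. The U6 pair shares 1 peak, so this rests on 2 peaks against 3, and the intervals overlap. The median IDR signal over the 6 snRNA genes was 123.6, against 106.8 at tRNA genes, 165.1 at snoRNA genes and 114.6 at protein-coding genes. Counting each of the 5 peaks once gave 119.5, and the median of all IDR peaks was 110.2. The snRNA peaks were therefore of middling strength, none reaching the 322.5 of the strongest tRNA gene or the 1498 of the strongest protein-coding gene.

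The replicates supported the snRNA peaks unevenly. A summit among the 2780 strongest of all 3 replicates was found at 3 of 32 snRNA genes (9.38%; U2:34ABb, U6:96Ab and U6:96Ac, from 2 peaks), against 7.08% of all genes. Of the 6 snRNA genes with an IDR summit this is 50%, against 60.2% of the 1990 protein-coding genes with one. Ranks were lowest, that is strongest, in replicate 3 for 7SKa, U2:34ABb, U4:39B and the U6 pair and in replicate 2 for U1:95Ca, and replicate 1 gave the weakest rank for all but U4:39B. With the 2780 strongest summits shared by 2 replicates in place of the IDR list, 5 snRNA genes were found without replicate 1, 3 without replicate 2 and 4 without replicate 3 (1561, 1419 and 1544 of all genes). The pair of replicates 2 and 3 lacked U4:39B, and the pair of replicates 1 and 3 lacked U1:95Ca, U4:39B and 7SKa. The pair of replicates 1 and 2 also lacked these 3 and held U1:21D. Over the full replicate lists, 37.5%, 50% and 59.4% of snRNA genes had a summit in replicates 1, 2 and 3. The same shares were 14.5%, 43.8% and 62.4% for tRNA genes and 38.3%, 51.2% and 52.7% for protein-coding genes. Summits were fewest in replicate 1 for each of these kinds of gene, most so for tRNA genes, and the part of this difference in the results was not tested.

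**Figure D3:**
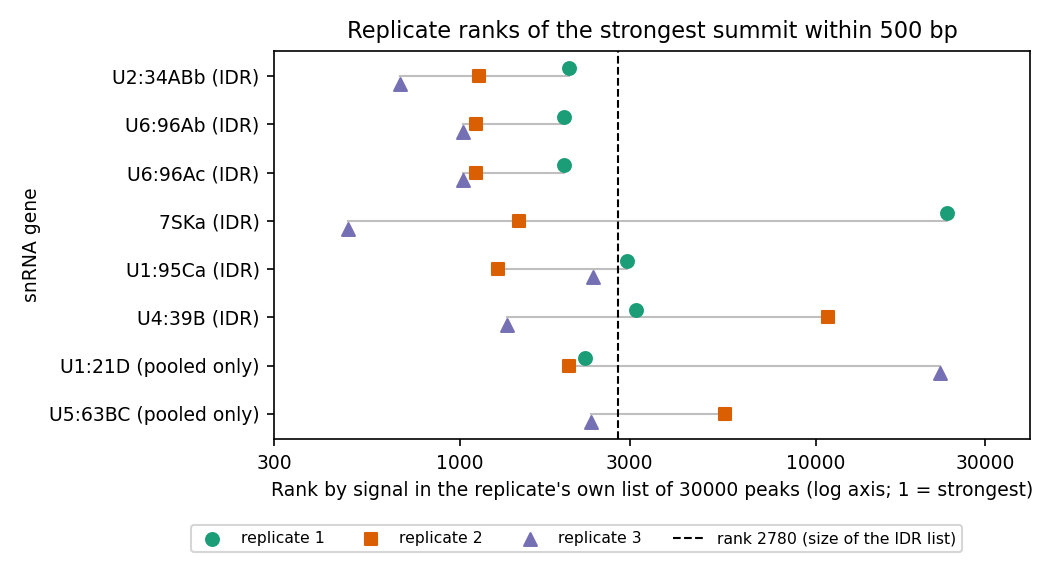
Rank by signal (x axis, log scale, 1 = strongest) of the strongest summit within 500 bp in each replicate's own list of 30000 peaks, for the 6 snRNA genes with an IDR summit and the 2 strongest without. The dashed line marks rank 2780; U2:34ABb and the U6 pair lie left of it in all replicates, while 7SKa reaches rank 23383 in replicate 1 and U1:21D rank 22391 in replicate 3.

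Most of these peaks lay over the snRNA genes themselves. At 5 of 6 snRNA genes with an IDR summit the summit lay downstream of the start, and at 4 of these it lay inside the gene. The remaining downstream summit was that of U6:96Ab, at +413 bp and past the end of its 107 bases. It is the same summit that lay 110 bp before U6:96Ac, so this peak was counted both ways. The median over the 6 genes was +70.5 bp. At tRNA genes 3 of 10 summits were downstream (median -168.5 bp) and at snoRNA genes 1 of 10 (median -204 bp), none of either inside the gene. At protein-coding genes 14.6% were downstream, with a median of -98 bp. In bins of 250 bp, the densest for snRNA genes was the first after the start, with 4 summits (12.5 per 100 genes), while the densest for protein-coding genes was the last before it, with 10.2 per 100 genes against 1.68 after it. The pooled list showed the same placement, with 12 summits in the first bin after snRNA starts (37.5 per 100 genes) and 4 in the last before (12.5), against 14.3 and 29.2 per 100 protein-coding genes. All snRNA genes other than 7SK are shorter than the usual peak of 390 bp, so a peak over one takes in both its promoter and its transcribed part. The exact PSEA core lay within the peak at U1:95Ca, U2:34ABb and U4:39B, 74, 168 and 95 bp from the summit. The core of U6:96Ac, with 1 mismatch, also lay within its peak, 48 bp from the summit. The core of 7SKa lay outside its peak, 303 bp from the summit. A weaker summit of the pooled list, with a signal of 25.4, lay 40 bp from the start of 7SKa.

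**Figure D4:**
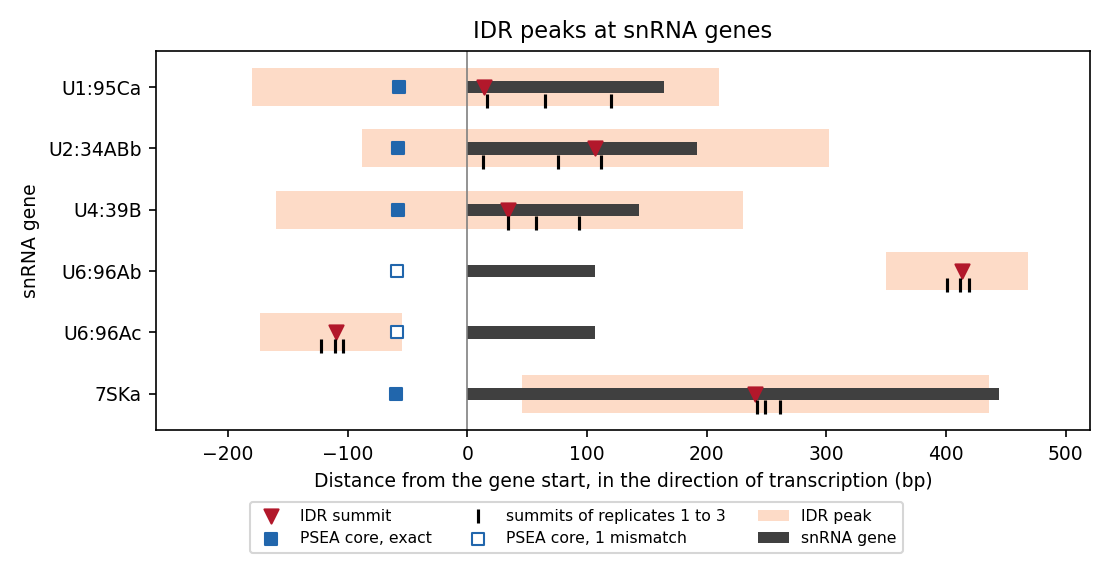
IDR peaks (pale bars), their summits (triangles) and the summits of replicates 1 to 3 (ticks) relative to the start of the 6 snRNA genes that had one (x axis, bp in the direction of transcription; dark bars are the genes). Squares mark the PSEA core, filled where exact; 4 summits fall inside the gene, and the peak between the U6 genes lies 110 bp before U6:96Ac and 413 bp after the start of U6:96Ab.

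**Figure D5:**
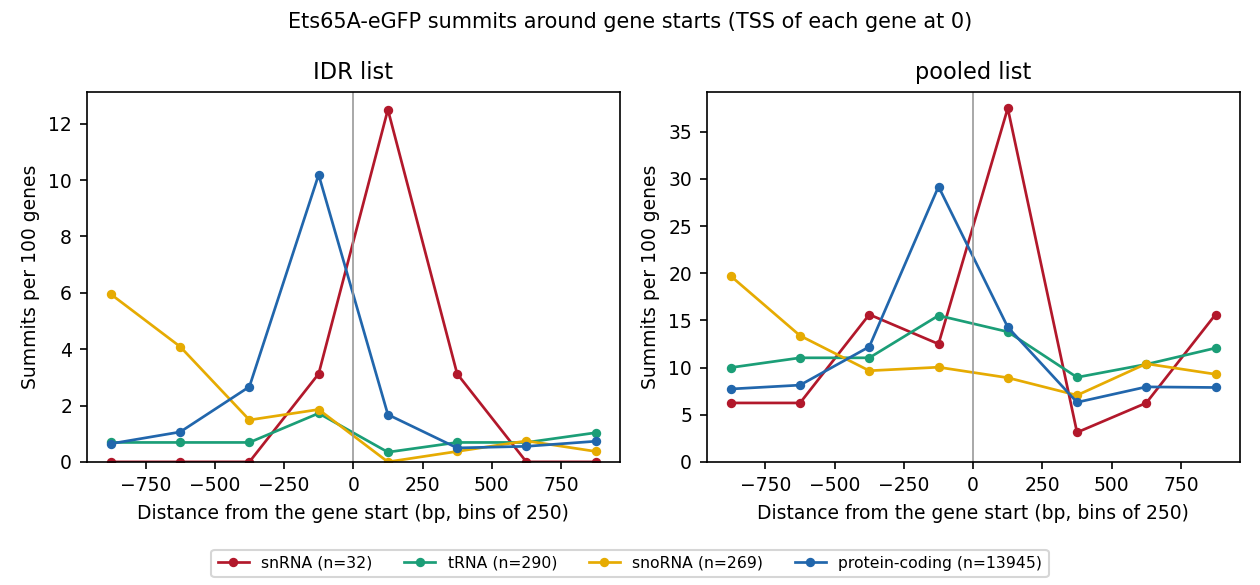
Summits per 100 genes (y axis) in bins of 250 bp around the start of snRNA, tRNA, snoRNA and protein-coding genes (x axis, bp) in the IDR list (left) and the pooled list (right). The snRNA line peaks in the bin after the start, at 12.5 and 37.5, and the protein-coding line in the bin before it, at 10.2 and 29.2.

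The sequence under 3 of the 5 snRNA summits is shown, for 7SKa because it holds the ETS word CCGGAA, for U1:95Ca because its window spans the gene start, and for the U6 pair because its peak lies between genes. Each line holds the 81 bases centred on the summit in dm6 on the strand of the gene, 5′ to 3′, with the letters CCGGAA in capitals.
7SKa: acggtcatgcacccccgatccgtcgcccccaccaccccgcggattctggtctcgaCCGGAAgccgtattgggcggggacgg
U1:95Ca: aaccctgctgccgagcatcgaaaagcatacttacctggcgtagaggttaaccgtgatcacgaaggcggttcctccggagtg
U6:96Ac: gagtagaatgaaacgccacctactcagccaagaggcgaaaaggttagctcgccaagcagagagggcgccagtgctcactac

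They lie at chr3R:7474716-7474796 (7SKa, minus strand), chr3R:23859576-23859656 (U1:95Ca, minus strand) and chr3R:24557065-24557145 (U6:96Ac, plus strand). The window at 7SKa lies wholly inside the gene. In the 201 bp around each summit, searched on both strands, CCGGAA, a word that ETS proteins bind, occurred at 1 of the 5 snRNA peaks (7SKa), against 5.61% of all 2780 IDR peaks. AATTCCC occurred at 2 of the 5 snRNA peaks (U1:95Ca and U4:39B), against 2.95% of all IDR peaks. These 5 peaks were picked near snRNA starts, and 22 of 32 snRNA genes carry that word before the start. Its share at them therefore follows in part from that choice. TATCGATA, the word of the DNA replication-related element, and GGTCACAC, a core promoter word, each occurred at 0 of the 5 snRNA peaks, against 5.83% and 3.88% of all. The absence of a word says only that these letters are not in the window. The share of G and C in the summit window was 65.2% at 7SKa, 51.7% at U1:95Ca, 47.8% at U4:39B and 44.8% at U2:34ABb, against a median of 37.3% over all IDR windows. Between the U6 genes it was 38.3%, close to that median. The window at 7SKa was the richest of all 2780, and the part of base composition in these peaks was not tested.

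Copies of the U1, U2 and U6 genes are nearly the same, which limits how far reads can be told apart. Within the class, the U1 genes shared 98.2% to 100% of their bases, the U2 genes 98.4% to 100% and the U5 genes 78.5% to 96.1%, while the 100 bp before their starts shared a median of 62.5%, 56.0% and 56.0%. Of all runs of 50 bases in the gene, 0% occurred once in the genome for U1:95Ca, U1:21D, U2:34ABb and the 3 U6 genes, against 57.4% for U4:39B and 100% for 7SKa. Over the IDR peak, the share of runs that occurred once was 51.9% at U2:34ABb, 62.5% at U1:95Ca and 88.3% at U4:39B. At 7SKa and at the peak between the U6 genes it was 100%. Within 250 bp of the start the median was 85.5% for the 6 snRNA genes with an IDR summit and 90.4% for the other 26, and it was 89.8% for all snRNA genes, 93.4% for tRNA genes and 100% for snoRNA genes. Thus the IDR peaks at 7SKa and between the U6 genes lie on sequence that occurs once. Those at U1:95Ca and U2:34ABb lie partly on sequence that also occurs elsewhere. For the U6 peak this holds for its narrow IDR interval of 118 bp. Its peaks in replicates 1, 2 and 3 were 360, 390 and 396 bp wide and reached into U6:96Ac, where 0% of runs occurred once. How the authors placed reads that match several copies is not given in the sources used here, and its part in the result was not tested.

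Some peaks at the comparison genes were stronger than any at snRNA genes. The 3 tRNA genes of highest IDR signal were tRNA:Tyr-GTA-1-8 (322.5, start 444 bp from the TSS of CG8036), tRNA:Phe-GAA-1-2 (244.2, 305 bp from RpL17) and tRNA:Gln-TTG-2-1 (112.2, 8284 bp from CG14269). The highest snoRNA genes were snoRNA:Or-aca5 and snoRNA:Psi28S-2949, which share a peak of 283.1, and snoRNA:Or-CD11a (207.6, 39 bp from the TSS of the ribosomal protein gene RpL28). tRNA genes carry their own promoter inside the gene, and the B box letters GTTCNANNC were present in 93.4% of them on the strand of the gene and in 0% of snRNA genes.

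Genes for proteins that make, process or bind snRNAs were looked up with the same rule. Of 63 listed, 59 were matched by name to the annotation, and 15 of these (25.4%) had an IDR summit, against 14.3% of protein-coding genes. The names Lsm2, Lsm5, Lsm6 and Lsm8 were not matched, so these genes were not looked up. With the 2780 strongest summits shared by replicates 2 and 3 in place of the IDR list the count was 9 (15.3%), against 10.3% of protein-coding genes by the same measure. None of the 3 SNAPc subunit genes, whose products bind the PSEA, had an IDR summit, and 2 had a summit in the pooled list. Of 4 genes for TBP family proteins and TFIIIB, which start polymerase III transcription, Bdp1 (signal 469.4) and Brf (308.8) had one, each from a peak that also lay within 500 bp of another gene (CG6565 and sds22). Of the 14 genes for Integrator, the complex that cuts the ends of snRNA transcripts, 6 had an IDR summit: IntS9 (184.5), IntS6 (169.2), IntS11 (137.3), IntS10 (133.5), IntS7, annotated as defl (98.5), and IntS4 (79.8). All but IntS4 shared the peak with the start of a neighbouring gene.

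Of the 5 genes listed under the little elongation complex, which promotes snRNA transcription, Ice1 had an IDR summit (74.96). Of the other groups the genes with one were Cbp20 of the cap-binding complex (92.8), icln of the Sm assembly machinery (76.3) and SNRPG among the Sm ring proteins (168.5). La, which binds the ends of polymerase III transcripts, had a signal of 73.4. Among snRNP proteins, snf, which binds U1 and U2 RNA, had 80.3 and U4-U6-60K, a protein of the U4 and U6 particle, had 103.0. In these 15 genes all summits lay before the start, from -416 to -11 bp, as did 85.4% of those at all 1990 protein-coding genes with an IDR summit. The summit was also within 500 bp of the start of another gene at 14 of these 15 genes, against 65.4% of those 1990.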

How the data were processed

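The authors' deposited peak lists were used in the dm6 build: 1 list per replicate, 1 from the pooled replicates and 1 of peaks that passed their IDR threshold. Per the labels, chromatin fragments of 200 to 800 bp from 3 biological replicates of 1 line were immunoprecipitated. Each deposited peak carries a signal value, used here as a score of unstated scale, and a q-value as -log10 q, both made by the authors. The IDR list held 2780 peaks with signal of 71.8 or more, the pooled list 28940 and each replicate list 30000. The lowest -log10 q was 3.23 in the IDR list and 0.0177 in the pooled list, so weak pooled calls carry little evidence. Read counts are not part of peak lists, and the depth of each sample is unknown here. No source used here names the aligner, the peak caller or the IDR cutoff. The dm3 lists, tracks and the control were not analysed here.

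Annotation was Ensembl release 115 (BDGP6.54) and sequence that of RefSeq for the same assembly, whose gene starts were taken with strand. A gene counted when a summit lay within 500 bp of its start, and the peak of highest signal was taken. Promoter words were searched in 100 bp before the start, summit words in 201 bp, and copies were compared by global alignment. Named were all snRNA genes, the 3 tRNA and 3 snoRNA genes of highest signal and every pathway gene with an IDR summit. The members and lists were chosen with earlier results of these data known, so shares are descriptions with Wilson intervals and no test. Gene matching was tested on simulated data. Alternatives changed the distance, the summit, the peak threshold, the number of top peaks, the motif, the meaning of an isolated gene and the replicates used. Python 3.11.15, pandas 2.3.3, numpy 2.4.6, scipy 1.17.1, biopython 1.88 and matplotlib 3.10.9 were used.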

Additional observations from a re-analysis of the deposited data

How the results depend on the processing

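Of 73 alternative values for 10 results, 48 stayed within 1.5 times the reported count, or for the median signal within the spread between replicates, and 25 did not. No direction applies to counts of 1 group. Requiring the peak to cover the gene start left 3 snRNA genes, 2 isolated snRNA genes, 4 tRNA, 2 snoRNA and 1321 protein-coding genes. The stronger 1390 IDR peaks left 3 isolated snRNA genes (10.3%), 4 tRNA genes, 1065 protein-coding genes and 7 pathway genes. They left 6.30% of all genes and 1.35% of all isolated genes. A distance of 250 bp gave 6 tRNA and 5 snoRNA genes, and 1000 bp gave 18 tRNA and 40 snoRNA genes, while the snRNA count was 5 and 6. A -log10 q of at least 2 left 7 snRNA genes in the pooled list, with no count over all genes at that limit. With the 1390 strongest peaks of each replicate, 0 snRNA genes were present in all 3. The share over all genes was not counted at that cutoff, so no conclusion is drawn from the 0. To leave out each replicate in turn, the IDR list was replaced by the strongest summits shared by the remaining replicates. This gave 3 to 5 snRNA genes, 2 to 4 isolated snRNA genes, 8 to 10 tRNA and 6 to 8 snoRNA genes. It also gave 1322 to 1442 protein-coding and 9 to 11 pathway genes. The count of snRNA genes with a top peak in all remaining replicates is then the same quantity. It enters the 73 values under both results. With each replicate left out, the median signal became 34.7 to 48.0, because single replicate lists use smaller signal values than the pooled list. Chosen after seeing the data were the 1-mismatch PSEA core (31 genes, against 22), isolation by the summit (6 genes, against 5) and the count without members within 1000 bp of another (4 of 21 genes). No paired analysis was possible because all samples belong to 1 group. Depth limits could not be given, as the lists hold no counts.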

Other observations

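The 14 snRNA genes with a summit in neither the IDR nor the pooled list fell into 4 with a weak call in some replicate and 10 with none in any list. U1:82Eb was listed in replicate 1 (signal 8.26, rank 28579) and replicate 2 (8.01, rank 25386), and U6:96Aa in replicates 2 and 3. U11 was listed in replicate 3 at a signal of 12.01 (rank 12739) and U5:35D in replicate 3 at 8.26 (rank 24694). The nearest pooled summit to U6atac, whose RNA takes the place of U6 in the minor spliceosome, was 5337 bp away, and the nearest IDR summit to 7SKb was 101375 bp away.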
